A study of Homo sapiens with 2 samples.

Results

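The AP-1 transcription factor family was examined as 9 genes, FOS, FOSB, FOSL1, FOSL2, JUN, JUNB, JUND, ATF3 and BATF3, of the 26370 gene names in the deposited files. Members were taken by gene name, and the FPKM of all transcripts of a gene was summed. FPKM is the number of sequenced fragments divided by transcript length and by sequencing depth, so it can be compared between genes of different length. Treated CHME3 cells had received 5 µg/ml of muscarinic receptor antagonists, given in the labels as the EC50, and untreated CHME3 cells had received none. Each condition was 1 library. CHME3 is an immortalised human line that the labels call microglia, and both cultures are given as passages 4 to 6. Muscarinic receptors are receptors for acetylcholine, and the labels name neither the compound nor the length of exposure.

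AP-1 is a dimer of proteins that share a basic region, which touches DNA, and a leucine zipper, which holds the partners together. JUN proteins pair with one another or with a FOS protein, FOS proteins depend on a JUN partner, and ATF3 and BATF3 can also pair with JUN proteins. FOS, JUN, FOSB, JUNB and ATF3 are immediate early genes, transcribed within minutes of a growth factor, stress or receptor signal. FOSL1 and FOSL2 usually follow later and last longer, and in macrophage-lineage cells AP-1 takes part in inflammatory gene expression.

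Without replicate libraries the spread within a condition is unknown, and no test was made. The 95% intervals of a value or ratio given below cover the counting of fragments alone and compare these libraries, not the conditions. The genes were chosen by family name with their FPKM ratios between these libraries known, so the differences are a description. The estimated depth was 7312570 fragments in the treated and 6834691 in the untreated library. The defining microglial markers AIF1, TMEM119 and CX3CR1 were listed at 0 in both libraries, and 15 of 18 microglia and macrophage markers were under 1 FPKM in both. Summed over the 18 markers the level was 71.5 FPKM in the treated and 79.8 FPKM in the untreated library. Listed 18S ribosomal RNA (RNA18S5) was at 759 FPKM in the treated and 363 FPKM in the untreated library. The part of these values in the differences between members was not tested.

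FOS was lower in the treated library, at 0.572 of its untreated FPKM, and the ratios of the other 8 members lay between 0.672 and 1.18. Of the 9 members, 8 had a mean of at least 1 FPKM over the libraries, the floor used for counts, and FOSB did not. Of these 8, 4 were lower and 4 higher in the treated library, where 49.3% of all 11668 genes over the floor were lower. The median log2 ratio of the 8 members, with 1 FPKM added to each value, was -0.03, and that of all genes over the floor was 0.00 with quartiles of -0.10 and 0.11. One member, FOS, was at least 1.5-fold lower on this scale, where 1.03% of all genes over the floor were, and 0 members were 1.5-fold higher, where 1.2% were. Since the same contrast was used to choose the members, nothing is read from these shares.

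The order of the members by level was the same in both libraries: FOSL1, JUN, JUNB, JUND, FOSL2, FOS, BATF3, ATF3 and FOSB. FOSL1 held 35.4% of the summed FPKM of the 9 genes in the treated and 37.7% in the untreated library. JUN held 23.2% in the treated and 20.04% in the untreated library, and FOSB 0.177% in the treated and 0.251% in the untreated library. In the treated library the intervals of BATF3 and ATF3, neighbours in this order, overlapped, and those of FOSL2 and FOS did not. In the untreated library it was FOSL2 and FOS whose intervals overlapped, at 18.5 and 16.8 FPKM, so the gap between these genes was wider in the treated library, at 18.8 and 9.62 FPKM. All other neighbours in the order had intervals that did not overlap.

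**Figure D1:**
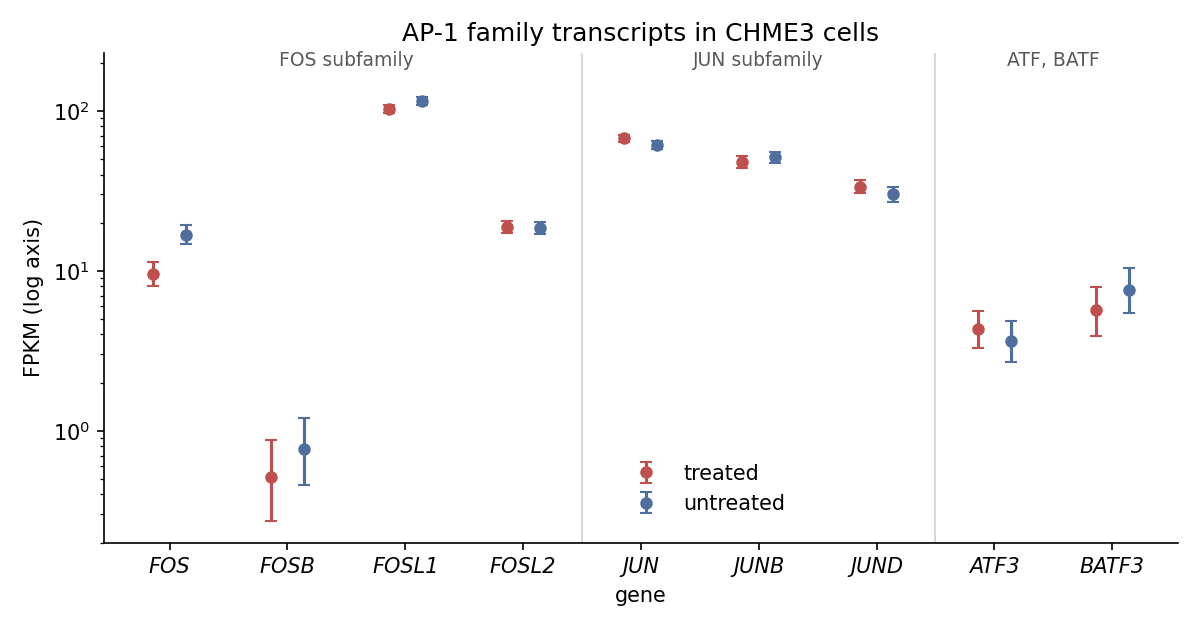
FPKM of each AP-1 member (log axis) in the treated (red) and untreated (blue) library, with the 95% exact Poisson interval of its fragments. FOSL1 is highest and FOSB lowest in both libraries. FOS is the one member whose intervals do not overlap between the libraries, at 9.62 FPKM in the treated and 16.8 FPKM in the untreated library. The share of all genes with such intervals was not computed.

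FOS, FOSB and FOSL2, with ratios of 0.572, 0.672 and 1.02, carry the same short element upstream of their RefSeq starts, while JUN carries another. JUND, with a ratio of 1.11, carries the first element too and is not shown. The counting interval of FOSB spans 1, and a link between the element and the ratios was not tested. The upstream sequences of FOS, FOSB, FOSL2 and JUN are given below. Each is the 250 bases before the transcription start in RefSeq, on GRCh38.p14, written 5′ to 3′ on the strand of the gene. Capitals mark matches to the searched motifs, which are TGACGT (the core of the cAMP response element), TATAAA (the TATA box), CCAAT and TGACATCA (an AP-1 variant site known from the JUN promoter).
FOS, chr14:75278578-75278827, plus strand: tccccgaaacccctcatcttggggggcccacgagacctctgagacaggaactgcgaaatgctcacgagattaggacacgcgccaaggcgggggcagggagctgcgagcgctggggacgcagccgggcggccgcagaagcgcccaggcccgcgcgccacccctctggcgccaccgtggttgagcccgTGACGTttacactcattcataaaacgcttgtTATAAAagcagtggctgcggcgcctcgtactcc
FOSB, chr19:45467746-45467995, plus strand: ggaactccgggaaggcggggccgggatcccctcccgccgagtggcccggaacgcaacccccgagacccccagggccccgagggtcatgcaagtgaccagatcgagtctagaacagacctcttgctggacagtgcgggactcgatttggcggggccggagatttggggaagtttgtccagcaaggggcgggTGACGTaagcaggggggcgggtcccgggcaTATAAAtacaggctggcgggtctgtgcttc
FOSL2, chr2:28392608-28392857, plus strand: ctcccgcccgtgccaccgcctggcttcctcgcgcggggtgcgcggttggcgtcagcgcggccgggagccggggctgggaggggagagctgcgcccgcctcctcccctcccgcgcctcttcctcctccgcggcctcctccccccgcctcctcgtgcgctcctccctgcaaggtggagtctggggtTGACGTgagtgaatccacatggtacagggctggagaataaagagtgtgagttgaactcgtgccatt
JUN, chr1:58784048-58784297, minus strand: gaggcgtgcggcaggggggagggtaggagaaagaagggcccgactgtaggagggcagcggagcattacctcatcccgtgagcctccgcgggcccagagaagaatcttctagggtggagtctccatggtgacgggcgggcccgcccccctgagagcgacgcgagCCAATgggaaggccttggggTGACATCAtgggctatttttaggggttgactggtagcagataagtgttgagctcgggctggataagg

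Of the 9 members 7 had an entry in the RefSeq promoter table, ATF3 with 2 starts, which gave 8 windows of 300 bases from 250 before to 50 after the start. FOSL1 and BATF3 were not matched. TGACGT began 64 bases before the RefSeq start in FOS, 60 in FOSB and 66 in FOSL2, each on the strand of the gene. From the starts of the transcripts measured here the same matches began 14 bases upstream in FOS, 59 in FOSB and 120 in FOSL2, so their like spacing holds for the RefSeq starts alone. JUND also held it, 200 bases before the start as part of a palindrome that matches on both strands, and again 87 bases before the start on the opposite strand. On either strand this motif was in 4 of the 8 member windows and in 7.98% of 35116 windows in the table. TATAAA began 33, 30 and 31 bases before the start of FOS, FOSB and JUNB, was also in 1 ATF3 window 230 bases before the start, and was in 11.5% of all windows on either strand. The variant site TGACATCA was in JUN, 67 bases before the RefSeq start, and in the more upstream ATF3 window, against 2.61% of all windows. In JUN it began 1 base upstream of the measured transcript, so all but its first base lies inside that transcript. CCAAT was in the windows of JUN, JUNB, JUND and ATF3, against 34.6%. The AP-1 site TGANTCA, where N is any base, matched in FOSL2 alone of the members, 5 bases past the RefSeq start and 50 bases upstream of the measured transcript, against 7.71% of all windows. The motifs were picked as known elements of these promoters, and a match is a string of letters, not a measured binding site. The deposited files place the start of FOS 50, of JUN 66 and of JUND 34 bases farther upstream than RefSeq does, and that of FOSL2 54 and of JUNB 10 bases farther downstream. The FOS match to TATAAA therefore lies 17 bases inside the transcript as the files list it. The ATF3 windows lie 43221 and 6390 bases from the start of NM_001674, the transcript that held most ATF3 signal, so their matches do not describe its promoter.

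FOS, the founding partner of JUN in AP-1 (chromosome 14, 75278778 to 75282234, hg38, plus strand, 4 exons, NM_005252), was at 9.62 FPKM in the treated library, from 139 fragments. In the untreated library it was at 16.8 FPKM, from 218 fragments. The FPKM ratio of treated over untreated was 0.572, with a counting interval of 0.459 to 0.711, and the log2 ratio with 1 FPKM added was -0.75. FOS had the lowest ratio of the 9 members. It ranked 69 from the lowest log2 ratio among the 11668 genes over the floor. Among 2707 other genes with transcripts of at least 300 bases and a mean within 1.5-fold of that of FOS, the central 95% of log2 ratios ran from -0.31 to 0.33, and 1 gene lay below FOS. The bounds that the authors deposited with each FPKM, 7.99 to 11.3 in the treated and 14.5 to 19.1 in the untreated library, did not overlap. FOS was the one member whose most abundant transcript had bounds apart, and the share of all genes with bounds apart was not computed.

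FOSB, a close relative of FOS that is induced with it (chromosome 19, 45467995 to 45475179, plus strand), was at 0.514 FPKM in the treated library, from 13 fragments. In the untreated library it was at 0.764 FPKM, from 19 fragments. Its ratio of 0.672 had a counting interval of 0.305 to 1.43, which spans 1, so a difference of the size seen in FOS was not detectable at this depth. Nearly all of it was listed under NM_006732, the transcript that holds a 108-base exon. The transcript without that exon, NM_001114171, was at no more than 0.000711 FPKM in either library.

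FOSL1, also called FRA1 and the most abundant member (chromosome 11, 65892136 to 65900526, minus strand), was at 102.8 FPKM in the treated and 114.95 FPKM in the untreated library, from 1161 and 1205 estimated fragments. Its ratio was 0.895, with a counting interval of 0.825 to 0.971, and its log2 ratio was -0.16. That lay inside the central 95% of 619 genes of like level, -0.20 to 0.19. FOSL2, also called FRA2 (chromosome 2, 28392912 to 28414649, plus strand), was at 18.8 FPKM in the treated and 18.5 FPKM in the untreated library. Its ratio of 1.02 had an interval of 0.896 to 1.15, which spans 1.

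Summed over its 4 genes, the FOS subfamily was at 132 FPKM in the treated and 151 FPKM in the untreated library, with 3 genes lower and 1 higher. FOSB, under the floor, is among the lower. Over the floor 2 were lower and 1 higher, where 49.3% of all genes over the floor were lower. The sum follows FOSL1, which made up 78.01% of it in the treated and 76.1% in the untreated library. FOS itself made up 7.30% of the sum in the treated and 11.1% in the untreated library. In the treated library FOSL1 was at 10.7 times the FPKM of FOS, against 6.83 times in the untreated library.

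The JUN genes lay between 0.939 and 1.11 times their untreated FPKM in the treated library. JUN, the partner that can bind DNA as a homodimer or with FOS (chromosome 1, 58780791 to 58784113, minus strand), was at 67.3 FPKM in the treated and 61.1 FPKM in the untreated library, from 1545 and 1294 fragments. Its ratio of 1.10 had a counting interval of 1.02 to 1.19. JUND, the JUN protein present in most resting cells (chromosome 19, 18279694 to 18281656, minus strand), was at 33.6 FPKM in the treated and 30.1 FPKM in the untreated library, a ratio of 1.11 (0.966 to 1.29). JUNB, which in many settings opposes JUN (chromosome 19, 12791496 to 12793311, plus strand), was at 48.05 FPKM in the treated and 51.2 FPKM in the untreated library, a ratio of 0.939 (0.833 to 1.06). The log2 ratios of all 3 lay inside the central 95% of genes of like level, which for JUN was -0.23 to 0.21.

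Summed over its 3 genes, the JUN subfamily was at 148.9 FPKM in the treated and 142 FPKM in the untreated library. Of these genes 2 were higher and 1 lower, where 49.3% of all genes over the floor were lower. The FOS subfamily sum over the JUN subfamily sum was 0.885 in the treated and 1.06 in the untreated library. FOS over JUN alone was 0.143 in the treated and 0.275 in the untreated library. These are ratios of messenger RNA levels, and protein was not measured.

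ATF3, a stress-induced factor of the ATF family (chromosome 1, 212565334 to 212620777, plus strand), was at 4.34 FPKM in the treated and 3.66 FPKM in the untreated library, from 60 and 47 estimated fragments. Its ratio of 1.18 had a counting interval of 0.795 to 1.77. BATF3, which lacks a transactivation domain of its own and is known for its part in dendritic cell development (chromosome 1, 212686417 to 212699985, minus strand), was at 5.65 FPKM in the treated and 7.61 FPKM in the untreated library, from 33 and 40 fragments. Its ratio of 0.743 had an interval of 0.454 to 1.21, and its log2 ratio of -0.37 was the second lowest among members over the floor. These genes are 65639 bases apart, and both intervals span 1, so opposite directions could not be told from counting error.

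**Figure D2:**
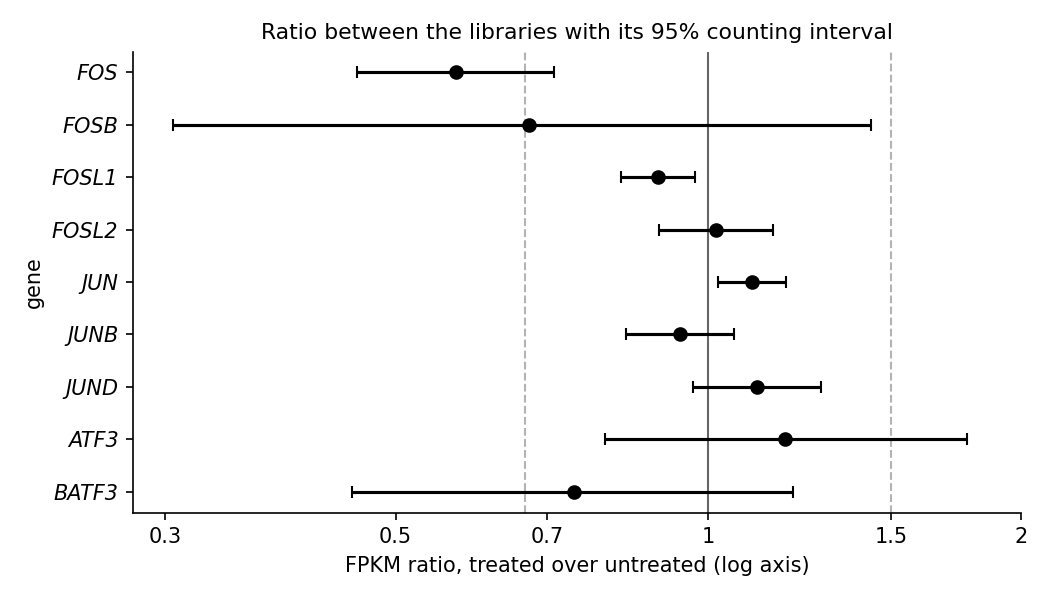
FPKM ratio of treated over untreated (log axis) for each AP-1 member, with its 95% exact conditional binomial interval; the solid line marks 1 and the dashed lines 1.5-fold either way. The intervals of FOS and FOSL1 lie below 1, that of JUN lies above 1, and the other 6 span 1.

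Across the 8 members over the floor, the counting interval lay below 1 in 2, FOS and FOSL1, where 6.02% of all genes over the floor had such an interval. It lay above 1 in 1, JUN, where 6.35% of all genes did. With 1.2-fold as the limit, FOS and BATF3 were lower, where 6.79% of all genes were, and 0 members were higher, where 8.1% were. The members just inside and just outside 1.5-fold were FOS, at 1.68-fold lower with 1 FPKM added, and BATF3, at 1.29-fold lower. Members of high level had narrow intervals and ratios near 1, and those of low level had wide ones, so the 3 members under 6 FPKM in the treated library can show large differences only.

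**Figure D3:**
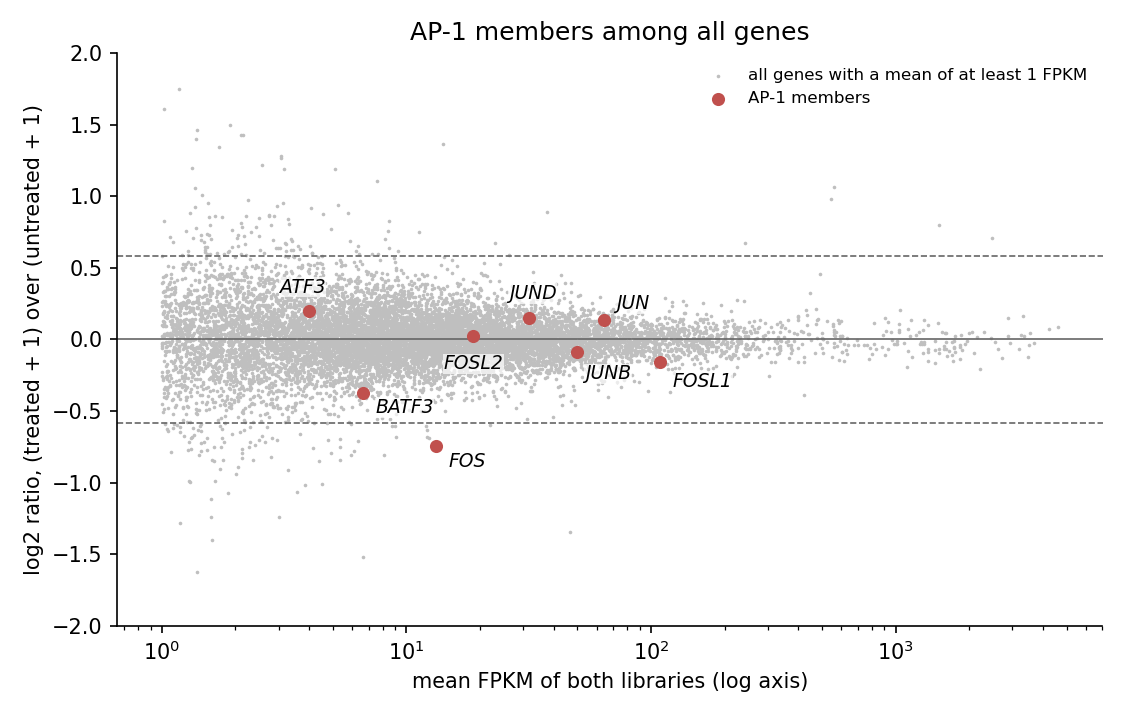
Log2 ratio of treated over untreated with 1 FPKM added to each value, against mean FPKM (log axis), for all 11668 genes over the floor (grey) and the 8 AP-1 members over the floor (red); dashed lines mark 1.5-fold, and 46 genes lie beyond the axis limits of 2 either way. FOS, at -0.75, lies below the cloud of genes of its level, and the other members lie in it or, for BATF3, at its lower edge.

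The members fall into different gene structures. The most abundant transcripts of FOS, FOSB, FOSL1, FOSL2 and ATF3 each hold an internal exon of exactly 108 bases, and that of BATF3 one of 105 bases. JUN, JUNB and JUND have 1 exon. Among all 11668 genes over the floor, 7.52% had an exon of 108 bases in the most abundant transcript, first and last exons included, and 3.21% had 1 exon. The length of 108 bases was taken from the members themselves. In FOS the 108-base exon lies at 75280560 to 75280667 and in FOSL1 at 65894014 to 65894121. No exon of another gene in the files overlapped an exon of a member. Since 6 members have 1 listed transcript, the values of those genes do not depend on how fragments were divided between isoforms.

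FOSL1 and ATF3 have 6 listed transcripts each, and how their fragments were divided differed between the libraries. The main FOSL1 transcript, NM_005438, was at 92.8 FPKM in the treated and 97.7 FPKM in the untreated library, which was 90.2% and 84.97% of the gene. NM_001300855, whose copy of the 108-base exon is 103 bases long, was at 4.59 FPKM in the treated and 10.8 FPKM in the untreated library. NM_001300844, which lacks this exon, was listed near 0 in the treated library, with an upper bound of 0.187 FPKM, and at 3.36 FPKM in the untreated library. For these minor transcripts the authors' bounds did not overlap, and for the other 4 they did. Together, transcripts with the full 108-base exon made up 92.95% of FOSL1 in the treated and 86.7% in the untreated library. Transcripts without the 198-base exon before it also had a higher share in the treated library, with 5.33% against 2.70% in the untreated library. These transcripts overlap, the division was estimated by the authors' software, and the change of shares was not tested.

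The main ATF3 transcript, NM_001674, was at 4.33 FPKM in the treated and 2.88 FPKM in the untreated library, which was almost all of the gene in the treated and 78.8% in the untreated library. NM_001206486, which starts at 212615018 inside the gene, was listed at 0 in the treated library and at 0.657 FPKM in the untreated library. The authors' bounds of each ATF3 transcript overlapped between the libraries. The log2 ratio of ATF3 was 0.20 with all transcripts and 0.46 with the main one alone.

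**Figure D4:**
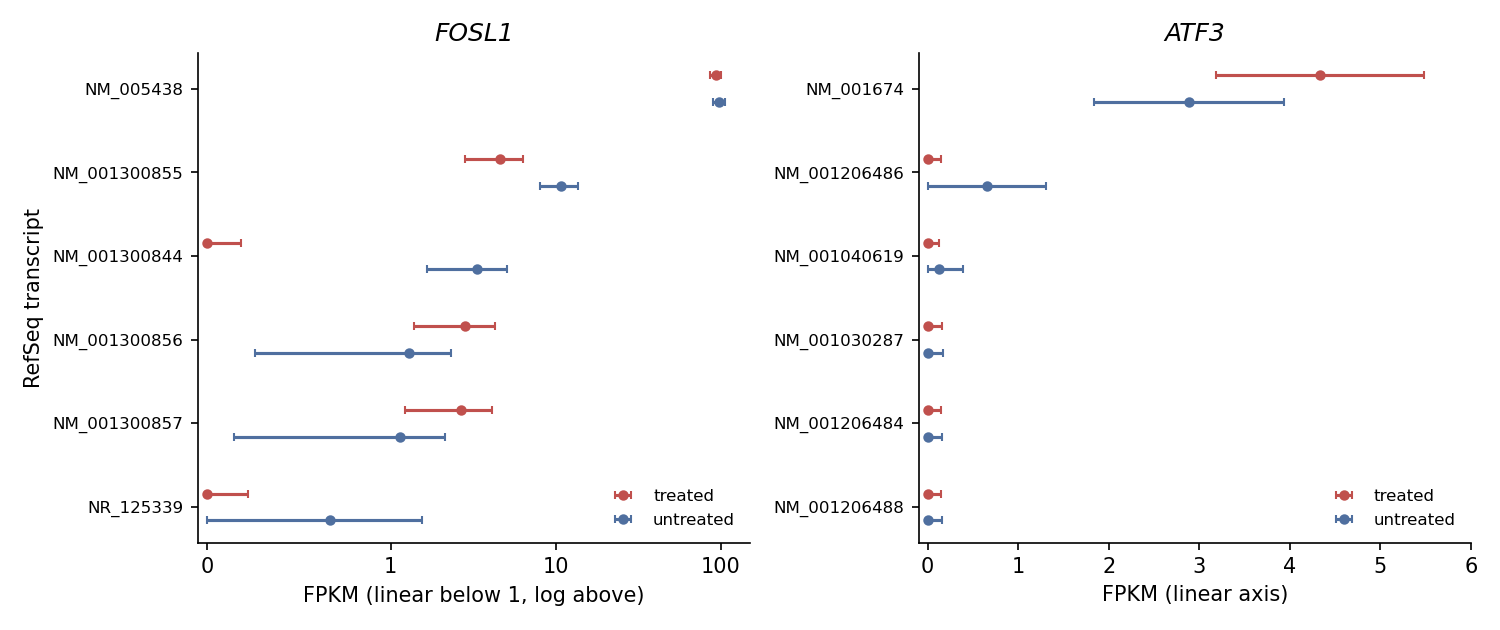
FPKM of each listed transcript of FOSL1 (left, axis linear below 1 and log above) and ATF3 (right, linear axis) in the treated (red) and untreated (blue) library, with the lower and upper bounds that the authors deposited. The main transcripts of both genes overlap between libraries, and the bounds of NM_001300855 and NM_001300844 of FOSL1 do not.

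Genes around AP-1 were taken from lists of related factors, upstream kinases, promoter-binding factors, turnover genes and targets. Among 35 other bZIP factors, 27 were over the floor, 19 higher and 8 (29.6%) lower, where 49.3% of all genes over the floor were lower, with a median log2 ratio of 0.03. The count of lower factors ran from 8 to 11 over the alternatives with the same floor. At 1.2-fold 3 were higher and 3 lower, where 8.1% of all genes were higher and 6.79% lower. At 1.5-fold 0 passed in either direction, where 1.2% of all genes were higher and 1.03% lower. DDIT3, a stress-induced bZIP factor, was at 13.3 FPKM in the treated and 10.3 FPKM in the untreated library, and TEF, of the PAR group of bZIP factors, at 5.10 FPKM in the treated and 6.93 FPKM in the untreated library. ATF4, the most abundant of the list, was at 204 FPKM in the treated and 198 FPKM in the untreated library. JDP2, a repressor that pairs with JUN and was chosen after its values were seen, was at 4.91 FPKM in the treated and 3.71 FPKM in the untreated library, a ratio of 1.32 (1.01 to 1.74).

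Of 24 kinases that relay signals to AP-1, 23 were over the floor, 13 higher and 10 (43.5%) lower, against 49.3% of all genes, with a median log2 ratio of 0.01. The count of lower kinases was 12 with the most abundant transcript and 12 with estimated fragments, so which direction held more kinases depends on the setting. MAP2K6, an activator of p38, was the one kinase at least 1.5-fold higher, as were 1.2% of all genes, at 1.91 FPKM in the treated and 0.779 FPKM in the untreated library, from 23 and 9 fragments, a ratio of 2.45 (1.09 to 6.01). RPS6KA2, a kinase activated by ERK, was at 5.99 FPKM in the treated and 4.43 FPKM in the untreated library. MAP2K3, another activator of p38, was at 26.03 FPKM in the treated and 31.9 FPKM in the untreated library, and MAP2K2, an activator of ERK and the most abundant of the list, at 99.1 FPKM in the treated and 106 FPKM in the untreated library.

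Of 16 factors known to bind the FOS or JUN promoters, 15 were over the floor, 9 higher and 6 (40%) lower, against 49.3% of all genes, with a median log2 ratio of 0.01. With the most abundant transcript 9 were lower, so the direction with more factors turned. ATF1, which binds the cAMP response element, was at 8.01 FPKM in the treated and 10.3 FPKM in the untreated library, a ratio of 0.776 (0.614 to 0.981). MEF2D, a MADS-box factor, was at 18.7 FPKM in the treated and 21.0 FPKM in the untreated library. STAT3, the most abundant of the list, was at 39.8 FPKM in the treated and 39.4 FPKM in the untreated library. SRF, which binds the serum response element of FOS and was chosen after its values were seen, was at 19.8 FPKM in the treated and 20.6 FPKM in the untreated library.

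All 16 genes of turnover and redox control of AP-1 were over the floor, 4 higher and 12 (75%) lower, against 49.3% of all genes. Their median log2 ratio was -0.06. At 1.2-fold 0 passed in either direction, where 8.1% of all genes were higher and 6.79% lower. The count of lower genes ran from 10 to 14 over the alternatives. ZFP36L1, which promotes decay of messenger RNAs with AU-rich elements, was at 44.96 FPKM in the treated and 51.9 FPKM in the untreated library, a ratio of 0.867 (0.794 to 0.946). COPS5, a JUN coactivator of the COP9 signalosome, was at 36.6 FPKM in the treated and 41.0 FPKM in the untreated library. TXN, the redox protein thioredoxin and the most abundant of the list, was at 231 FPKM in the treated and 218 FPKM in the untreated library.

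Of 37 known AP-1 target genes, 25 were over the floor and 5 were listed at 0 in both libraries. Of the 25, 11 were higher and 14 (56%) lower, against 49.3% of all genes, with a median log2 ratio of -0.03. The count of lower targets was 12 with estimated fragments, so which direction held more targets depends on the setting. At 1.2-fold 1 was higher and 2 lower, where 8.1% of all genes were higher and 6.79% lower. At 1.5-fold 0 passed in either direction, where 1.2% of all genes were higher and 1.03% lower. CXCL8, a chemokine, was at 18.1 FPKM in the treated and 14.2 FPKM in the untreated library, a ratio of 1.27 (1.02 to 1.58). IL11, a cytokine, was at 16.2 FPKM in the treated and 20.7 FPKM in the untreated library, a ratio of 0.783 (0.661 to 0.926). MT2A, a metallothionein and the most abundant of the list, was at 2530 FPKM in the treated and 2562 FPKM in the untreated library. Targets lay on both sides of 1.

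**Figure D5:**
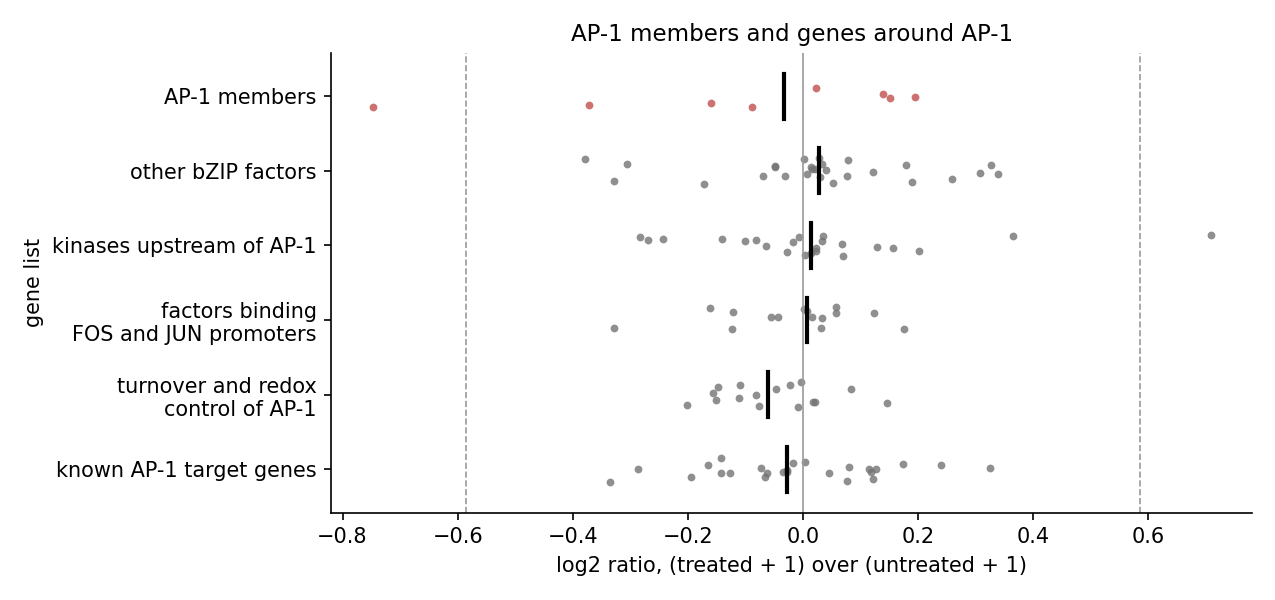
Log2 ratio of treated over untreated with 1 FPKM added to each value, for genes over the floor in each list; points are genes, black bars are medians and dashed lines mark 1.5-fold. FOS, at -0.75, and the kinase MAP2K6, at 0.71, are the points past 1.5-fold, and the medians lie between -0.06 and 0.03.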

How the data were processed

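RNA of 1 treated and 1 untreated CHME3 culture was sequenced, per the labels, from TruSeq libraries on an Illumina instrument. Samples were grouped by their treatment label. TopHat and Cuffdiff with the build hg38 are named in the submitters' processing notes, and each line of the deposited files names Cufflinks as its source. The authors deposited FPKM per RefSeq transcript with a lower and an upper bound. How reads shared between genes were treated and whether strand was kept are not given in the sources used here.

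FPKM was summed over the transcripts of a gene, and the log2 ratio was taken after adding 1 FPKM, which understates the ratio of low genes. Counts cover genes whose mean over both libraries reached 1 FPKM. Fragments of genes with 1 transcript were recovered as the square of 2 × FPKM over the distance to the upper bound. Among 5992 treated and 5931 untreated values of at least 3 fragments, 21.3% and 21.1% came within 0.01 fragments of a whole number, so they are estimates, not counts. A Theil-Sen line of fragments per FPKM on length, over whole values of at least 10 fragments and transcripts of at least 1000 bases, gave the depth. Genes with several transcripts got fragments from FPKM, length and depth. Intervals are 95% exact Poisson (levels) and exact conditional binomial (ratios), cover counting error only and leave out PCR duplicates. They use rounded fragments.

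The members and lists were chosen with earlier results of these data known. Named genes are all members and, from each list, genes past 1.5-fold (at most 4), the 2 largest log2 ratios from a mean of 5 FPKM and the most abundant gene. Other named genes are marked, and 1 gene that the rule takes is not reported here. The code was tested on simulated data. Python 3.11.15, pandas 2.3.3 and SciPy 1.17.1 were used. Alternatives were another pseudocount (0.1 or 5 FPKM), the most abundant transcript, 3 scalings, no floor and a floor of 5 FPKM.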

Additional observations from a re-analysis of the deposited data

How the results depend on the processing

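Of 118 values recomputed under 8 alternative settings, 117 stayed within the counting interval, the spread between members or, for counts, 1.5 times the main count, 1 moved and 0 were reversed. The count of members at least 1.5-fold lower was 1 in the main setting and 0 with a pseudocount of 5 FPKM, where the log2 ratio of FOS was -0.58, because a larger pseudocount shrinks every ratio. Over the settings the log2 ratio of FOS ran from -0.80 to -0.58, of FOSB from -0.49 to -0.06, of BATF3 from -0.42 to -0.24, of FOSL1 from -0.16 to -0.07, of JUN from 0.13 to 0.16 and of ATF3 from 0.11 to 0.46. The sign of each of the 9 members was the same in all settings. The lists of upstream kinases and of promoter-binding factors changed which direction held more genes with the most abundant transcript. With estimated fragments the lists of upstream kinases and of known AP-1 targets changed it. No paired analysis was possible because each condition has 1 library and the labels give no replicate numbers, and no library could be left out. Depth limits FOSB, BATF3 and ATF3 most, with 13 to 60 fragments per library.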
